A study of Triticum aestivum with 48 samples.

Results

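Roots and shoots of 15 day old wheat seedlings grown with 8 mM calcium nitrate were compared in 3 wheat genotypes, HD2967, K9107 and K307. The comparison used every control nitrogen array of these genotypes, 9 root arrays and 9 shoot arrays, 18 of the 48 arrays of the series. Each genotype contributed 3 root arrays and 3 shoot arrays, numbered 1 to 3 in the labels. All 6 groups shared the same treatment: sterilized seed germinated in the dark and then grown in pots of vermiculite and perlite under long days, on a modified MS medium whose only nitrogen source was calcium nitrate. Low nitrogen arrays and a further genotype, CL, were not used. The series describes 3 sets of pots per genotype, but does not say how many plants went into an array. The p-values below therefore measure the spread between arrays, which may be partly technical.

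The platform was Affymetrix's Wheat Genome Array, on which a probe set is a group of short oligonucleotides that together report 1 transcript. The values are log2 signal intensities after RMA, a method that corrects background, normalizes arrays together and summarizes each probe set. A difference of 1 is a 2-fold change, and a difference is always root minus shoot. A probe set was called when its adjusted p was under 0.05, from limma with Benjamini-Hochberg adjustment over all 61179 probe sets. Array medians fell in 3 separate ranges, called the low (4.33 to 4.47), middle (4.61 to 4.68) and high (5.32 to 5.39) normalization sets. Every genotype had as many root as shoot arrays in each set, so the set term in the fit narrows the spread and leaves the differences themselves as they are. HD2967 lay wholly in the middle set, K9107 in the low and high sets, and K307 had 1 root and 1 shoot array in each. HD2967 and K9107 share no set, so these genotypes are tested against each other only as root minus shoot differences. Where their deposited values are set side by side below, the offset between sets is part of what is seen. The first principal component of the set-centred values held 63.5% of the variance and separated the 9 root arrays (-123.4 to -105.5) from the 9 shoot arrays (79.9 to 137.6). Shoot array 2 of K9107 (79.9 on that component) and shoot array 1 of HD2967 (92.6) lay closest to the roots, the other 7 shoot arrays between 113.4 and 137.6. They also had the lowest weights when limma weighted arrays by their fit, 0.214 for the K9107 array and 0.324 for the HD2967 array.

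Shoots of a seedling carry the photosynthetic cells, in which light drives electrons from the oxygen-evolving complex of photosystem II through the cytochrome b6f complex, and the Calvin cycle turns carbon dioxide into sugar phosphates. Roots take up water and mineral ions and grow from a dividing tip. Wheat leaves also grow from a dividing zone at their base, so dividing cells are present in both organs. Bread wheat carries several related subgenomes, and a probe set can report their copies together. In samples of whole organs, a change in how many cells of a type are present and a change in transcript per cell cannot be told apart.

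Averaged over the 3 genotypes, 25953 of the 61179 probe sets were called, 42.4%. Of these, 14693 were higher in roots (24.0%) and 11260 were lower in roots (18.4%), and the median difference of all probe sets was 0.05. Differences of at least 1 were fewer: 3550 probe sets (5.80%) were higher in roots and 4112 (6.72%) lower. A smaller number separated the organs completely, with all 9 root arrays below all 9 shoot arrays for 2227 probe sets (3.64%) and above them for 1335 (2.18%). These counts pool deposited values over the normalization sets, so organs that part within each set can still count as overlapping. By genotype, 14158 probe sets were called in HD2967 (23.1%; 12.2% higher in roots, 11.0% lower), 15349 in K9107 (25.1%; 13.4% higher, 11.7% lower) and 16708 in K307 (27.3%; 14.8% higher, 12.5% lower). Of the probe sets called on average, 23564 had the same sign in all 3 genotypes. Called in every genotype were 3464 probe sets higher in roots and 3945 lower.

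The annotation used here names 102 genes by an informative symbol, each read from the brightest of its probe sets. Of these, 27 were higher in roots, 37 were lower and 38 did not pass, against 24.0% higher and 18.4% lower over all probe sets. The largest named differences were all on the shoot side: 25 of the 102 were lower in roots by at least 1, and 13 were higher by at least 1. Among all probe sets, 6.72% were lower by that much and 5.80% higher. All root arrays lay below all shoot arrays for 17 genes and above them for 1, the beta-tubulin gene tubb1. These counts too pool deposited values over the sets, against 3.64% below and 2.18% above over all probe sets. Pooling hides some separation: PER1 and Tubb4, for example, had all roots above all shoots within each set. Most probe sets have no gene name here, among them those with the largest differences. Probe set Ta.5182.1.S1_at ranged from 11.09 to 12.28 in roots, against 2.77 to 4.33 in shoots (difference 8.29 ± 0.11, SE), and Ta.5186.1.S1_at was higher in roots by 7.84 ± 0.12. At the other end, TaAffx.53659.1.S1_s_at ranged from 2.52 to 4.26 in roots, against 11.70 to 12.99 in shoots (difference -8.97 ± 0.11), and Ta.21213.2.S1_x_at lay at -8.82 ± 0.12.

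**Figure D1:**
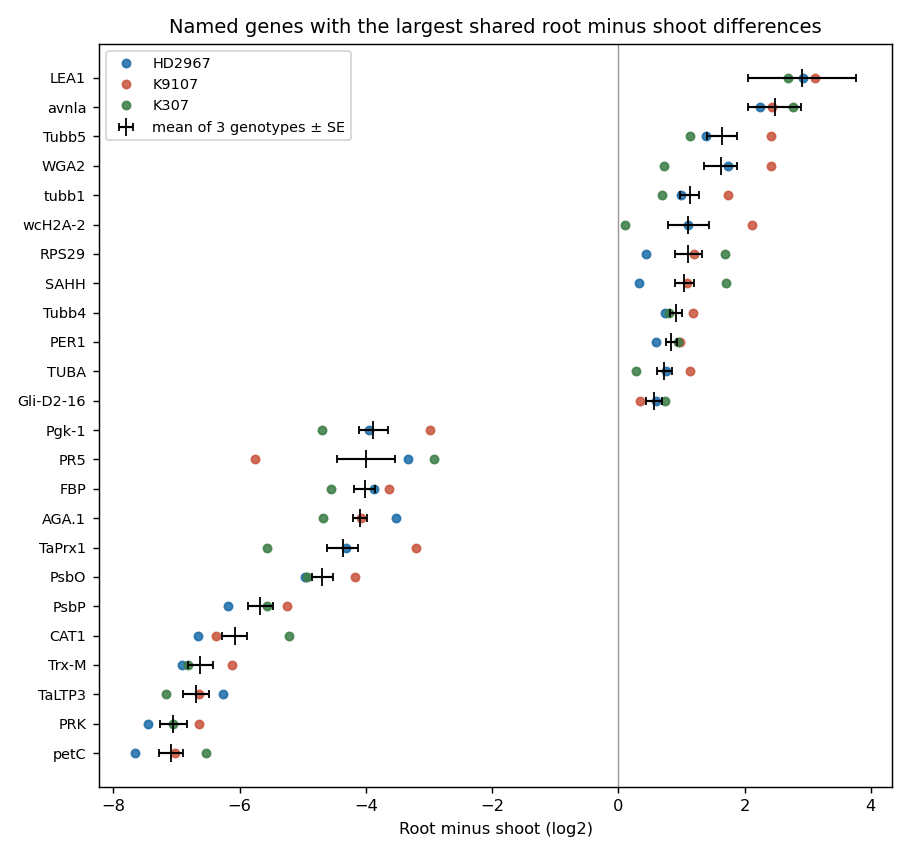
Root minus shoot differences (log2, horizontal axis) of the named genes with the largest shared differences that had 1 sign in all 3 genotypes, 12 higher and 12 lower in roots. The black marks and bars are the mean of the 3 genotypes ± SE from limma, and the coloured points are the genotypes' own differences. The lower genes reach -7.08 (petC), while the highest root value is 2.91 (LEA1), with the widest error.

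The light reaction genes were lower in roots in all 3 genotypes. All 3 genes of this list, and all 5 of their probe sets, were called lower, with a median difference of -5.25 over the probe sets, against 0.05 over all probe sets. The share called lower over all probe sets was 18.4%. petC, the Rieske iron-sulphur protein of the cytochrome b6f complex, had a lowest, median and highest value of 3.91, 4.85 and 5.90 in roots, against 11.36, 12.03 and 12.34 in shoots. The organs did not overlap, and petC was lower in roots by a log2 difference of -7.08 ± 0.19 (SE; 135-fold; adjusted p = 6.81e-12). PsbP and PsbO, extrinsic proteins of the oxygen-evolving complex, were likewise apart in every array. PsbP ran from 5.22 through a median of 6.31 to 6.97 in roots, against 11.28, 11.85 and 12.65 in shoots, a difference of -5.67 ± 0.20. PsbO ran from 6.01 through 6.93 to 7.84 in roots, against 11.02, 11.54 and 12.31 in shoots, a difference of -4.69 ± 0.17. A second probe set of petC was dim, with a mean of 2.69, and differed by only -0.29. Both PsbP and PsbO lay above the array median in all 9 root arrays, petC in 2 of 9.

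The carbon fixation genes were lower too. PRK, phosphoribulokinase of the Calvin cycle, had a lowest, median and highest value of 3.18, 3.60 and 4.41 in roots, against 9.73, 10.90 and 11.57 in shoots. Every root array was below its own array median for PRK and every shoot array above it, a difference of -7.05 ± 0.21 (133-fold; adjusted p = 1.35e-11). FBP, fructose-1,6-bisphosphatase, lay at 3.49, 3.96 and 4.99 in roots, against 7.20, 8.18 and 9.54 in shoots, a difference of -4.02 ± 0.17. Its dimmer probe set, with a mean of 2.85, was higher in roots by 0.23 (adjusted p = 0.0133). rbcl, the large subunit of Rubisco, the enzyme that fixes carbon dioxide, is covered by 28 probe sets. Of these, 15 were called lower in roots, 2 higher and 11 did not pass, against 18.4% lower and 24.0% higher over all probe sets. The brightest ran from 10.06 to 12.10 in roots, against 13.67 to 14.24 in shoots, a difference of -2.90 ± 0.10. In shoots it lay within 0.03 to 0.15 of the brightest value on each array, so its shoot level was at the top of the measured range, and in roots it was still 1.51 to 3.54 below that top.

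**Figure D2:**
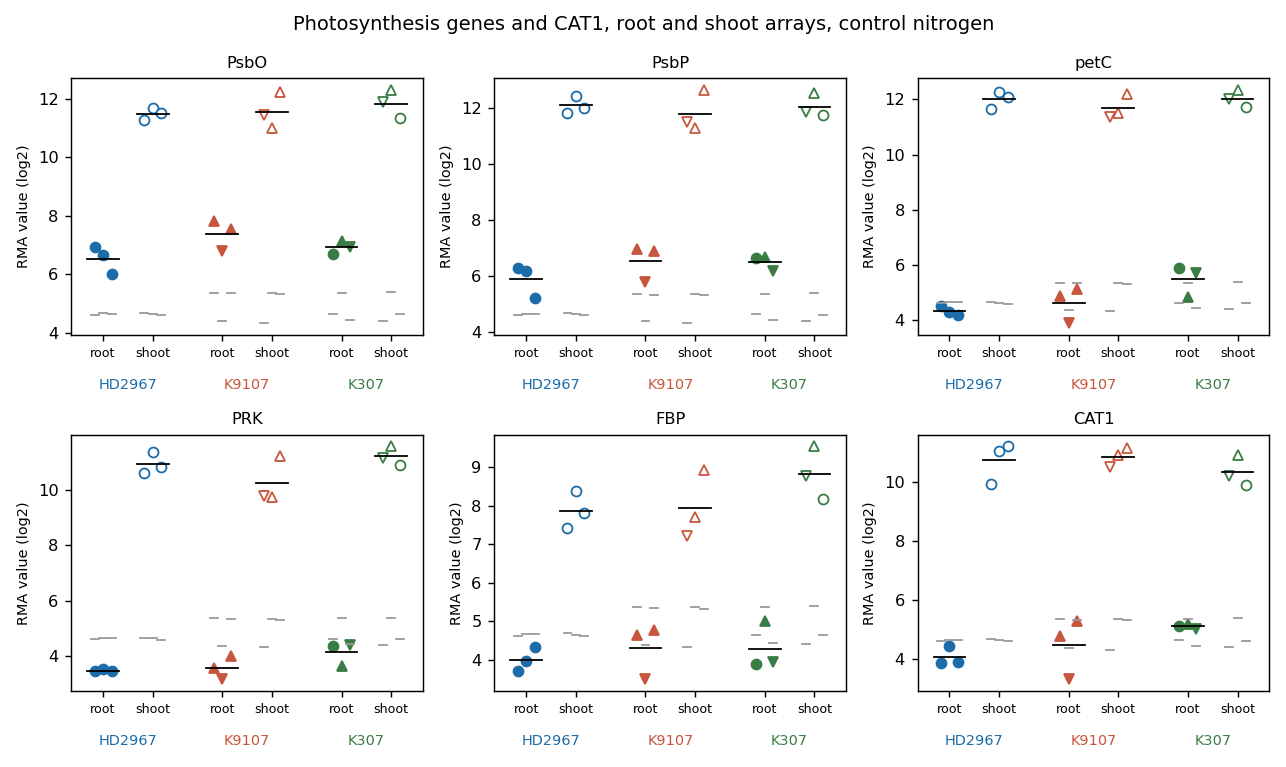
RMA values (log2, vertical axes) of 5 photosynthesis genes and the catalase gene CAT1 in every array, root left of shoot within each genotype. Filled symbols are roots and open symbols shoots; triangles pointing down, circles and triangles pointing up mark the low, middle and high normalization sets, black bars are group means and grey ticks each array's median. In every panel all 9 root arrays lie below all 9 shoot arrays.

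Among redox enzymes, 5 of 6 genes were lower in roots and 1 was higher, against 18.4% lower and 24.0% higher over all probe sets. The median difference was -4.12 over the genes and -2.04 over their 14 probe sets. Trx-M, an m-type thioredoxin, the chloroplast kind that passes reducing power to target enzymes, ranged from 2.47 to 3.59 with a median of 3.26 in roots, against 8.97 to 10.95 with a median of 9.64 in shoots, a difference of -6.62 ± 0.20 (98.0-fold). CAT1, a catalase, which breaks down hydrogen peroxide, ranged from 3.33 to 5.29 with a median of 4.79 in roots, against 9.89 to 11.20 with a median of 10.90 in shoots, a difference of -6.08 ± 0.20 (67.7-fold). TaPrx1 lay at -4.37 ± 0.25, and 3 of its 4 probe sets lay below -4 (the dimmest differed by -0.27). lgul, lactoylglutathione lyase, which detoxifies methylglyoxal, lay at -3.86 ± 0.12. GSTZ1, a zeta-class glutathione transferase, lay at -0.92 ± 0.14 and its organs overlapped. The exception was PER1, which the reference lists with peroxidase as a synonym: it ranged from 5.64 to 7.25 in roots, against 4.51 to 6.34 in shoots, and was higher in roots by 0.84 ± 0.09 (adjusted p = 5.29e-06). Its dimmer probe set did not pass, with differences of -0.44 to 0.87 within the sets of each genotype.

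Sugar and starch genes were mixed. In the fructan and starch list, 4 of 6 genes were lower in roots and 2 were higher, against 18.4% lower and 24.0% higher over all probe sets. AGA.1 and AGP-S encode subunits of ADP-glucose pyrophosphorylase, which makes the glucosyl donor for starch. AGA.1 ranged from 2.94 to 4.76 in roots, against 7.23 to 9.30 in shoots, a difference of -4.09 ± 0.11, though its dimmer probe set differed by only -0.47. AGP-S lay at -1.36 ± 0.13, BMY1, named for beta-amylase, at -2.13 ± 0.30, and 1-FEHw2, a fructan exohydrolase, which trims stored fructan, at -0.88 ± 0.12. A second fructan exohydrolase, 6-FEH, was higher in roots by 0.27 ± 0.07, while another of its probe sets differed by -0.46 (adjusted p = 0.00817), so the probe sets of 6-FEH disagreed. Wx-A1, a granule-bound starch synthase, was higher by 0.28 ± 0.08 (adjusted p = 0.0157), from values below the array median in all 18 arrays. Of 4 glycolysis and sugar phosphate genes, 2 were lower and 2 did not pass. Pgk-1, a phosphoglycerate kinase, ranged from 6.16 to 7.71 in roots, against 9.40 to 12.13 in shoots (-3.88 ± 0.23). GAPN, a non-phosphorylating glyceraldehyde-3-phosphate dehydrogenase, lay at -2.49 ± 0.18. PFK, phosphofructokinase, lay at -0.27 ± 0.14 and TaPMM, phosphomannomutase, at 0.11 ± 0.06, neither of which passed.

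Several shoot-side genes lay outside these lists. TaLTP3, a lipid transfer protein, of a family that carries lipids to the plant surface, had a median of 5.36 in roots (3.78 to 5.86), against 11.99 in shoots (10.98 to 12.73), a difference of -6.69 ± 0.20 (103-fold). Its dimmer probe set was less even: -1.31 in HD2967, -2.64 and -3.38 in the low and high sets of K9107, and -4.32 to -5.28 within the sets of K307. TSA, the alpha subunit of tryptophan synthase, lay at -2.46 ± 0.12. TaGlu1a, a beta-glucosidase, lay at -3.69 ± 0.78, with 2 levels among the shoot arrays. Shoot array 3 of HD2967 (5.46) and shoot arrays 1 and 2 of K9107 (4.56 and 5.39) sat at the level of the roots (3.97 to 6.34), and the other 6 shoot arrays lay between 10.35 and 11.56. Of the 17 genes with no list of their own, 2 were higher in roots, 6 lower and 9 did not pass. The shares over all probe sets were 24.0% higher and 18.4% lower. The 2 higher were la-17 (0.34 ± 0.07) and FKBP70 (0.30 ± 0.10), an immunophilin. AdSS, raftin1b and Profilin-1 lay at 0.05, -0.04 and -0.03.

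Of the 5 genes listed for root ion and metal uptake, 1 was higher in roots and 4 were lower, against 24.0% higher and 18.4% lower over all probe sets. TaALMT1, an aluminium-activated malate channel that releases malate from the root tip, was the one higher in roots, by 1.3 ± 0.29 (adjusted p = 0.00245). In HD2967 it had 3.21, 3.26 and 3.55 in roots, against 3.49, 3.37 and 3.78 in shoots. In K9107 it had 5.64, 5.26 and 5.89 in roots, against 3.09, 4.86 and 3.37 in shoots. In K307 it had 6.59, 7.13 and 5.29 in roots, against 5.09, 3.78 and 3.28 in shoots. The organs overlapped in HD2967, where the difference was -0.20 ± 0.50 and not called, and did not in K9107 (1.82, adjusted p = 0.0162) or K307 (2.29, adjusted p = 0.00384). The test of genotype by tissue did not pass for TaALMT1 (adjusted p = 0.117), so the 3 differences are not shown to differ.

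The other uptake genes were slightly lower in roots. DMAS1, which makes the iron chelator deoxymugineic acid that grass roots secrete, ranged from 6.89 to 8.52 in roots, against 7.25 to 8.82 in shoots, a difference of -0.27 ± 0.07 (adjusted p = 0.00969). TaPCS1, phytochelatin synthase, which makes metal-binding peptides, lay at -0.73 ± 0.14. TaTPC1, a vacuolar cation channel, lay at -0.88 ± 0.11, and ha1, a plasma membrane proton pump, at -0.29 ± 0.08. The arrays labelled root thus lacked photosynthesis transcripts at the shoot level, while DMAS1, listed here as a root gene, did not separate the organs and TaALMT1 separated them in K9107 and K307.

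LEA1, a late embryogenesis abundant protein, a kind of protein made in seeds and under water loss, was higher in roots by 2.91 ± 0.86 (7.49-fold; adjusted p = 0.0146). In HD2967 it had 7.80, 5.72 and 3.99 in roots, against 2.36, 2.67 and 3.72 in shoots. In K9107 it had 8.18, 8.12 and 8.35 in roots, against 2.45, 10.05 and 2.82 in shoots. In K307 it had 5.71, 6.21 and 5.69 in roots, against 3.97, 2.83 and 2.74 in shoots. Roots were higher than shoots of the same genotype in all arrays apart from shoot array 2 of K9107, whose value was the highest of all 18. That array was also the highest for the dehydrin gene Rab15, at 10.65, against 5.24 to 6.50 in roots and 5.19 to 6.54 in the other 8 shoot arrays, and for the zinc finger gene WZF1, at 11.54. Neither Rab15 (-0.31 ± 0.45) nor WZF1 (0.49 ± 0.26) passed. LEA1 was called in no single genotype with all arrays. Without shoot array 2 of K9107, LEA1 differed by 3.73 on average (adjusted p = 1.35e-05). That is the lowest adjusted p of the 18 fits that left out 1 array, and the highest was 0.0393. As the array stands out by its own LEA1 value, the fit without it is no independent test. Rab15 in K9107 lay at -1.61 (adjusted p = 0.17), which became 0.0431 with a replicate block in K9107. Of the 6 LEA, cold and heat genes, 2 were higher in roots and 4 did not pass, against 24.0% higher over all probe sets. The other called one was EM, an early-methionine-labelled seed protein (0.29 ± 0.09), below the array median in all 18 arrays. EMH2, COR410, a dehydrin, and hsp16.9A, a small heat shock protein, lay at 0.13 ± 0.07, 0.16 ± 0.11 and -0.18 ± 0.54.

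Seed storage genes were mostly flat and dim. Among 15 grain protein genes, 2 were higher in roots, 1 was lower and 12 did not pass, and 8 were below the array median in all 18 arrays. The shares over all probe sets were 24.0% higher and 18.4% lower. avnla, an avenin-like protein of the prolamin family, was higher in roots by 2.48 ± 0.42 (adjusted p = 0.000286). It ranged from 3.74 to 8.17 with a median of 6.41 in roots, against 2.72 to 5.42 with a median of 3.62 in shoots. Its lowest root value, in HD2967 root array 3, was still above the 3 HD2967 shoot arrays, which lay between 2.84 and 3.03. In K9107 the roots began at 5.36, against shoots of at most 4.34, and in K307 at 6.41, against shoots of at most 5.42. The call in HD2967 (adjusted p = 0.0395) was lost with a replicate block in K9107 (0.0559). The gliadin gene Gli-D2-16 was higher by 0.56 ± 0.13 and Serpin-Z2B was lower, at -0.30 ± 0.08. By its brightest probe set avnlb, also avenin-like, did not pass (0.19, adjusted p = 0.0844). Another avnlb probe set was higher in roots within every set of each genotype, by 0.62 to 1.79. Of the 27 probe sets of the list, 5 were called higher and 1 lower. Serpin-Z1C, Gli-D2-1 and Gli-B2-11 had the largest p of the list, with differences of -0.03, 0.01 and 0.01.

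**Figure D3:**
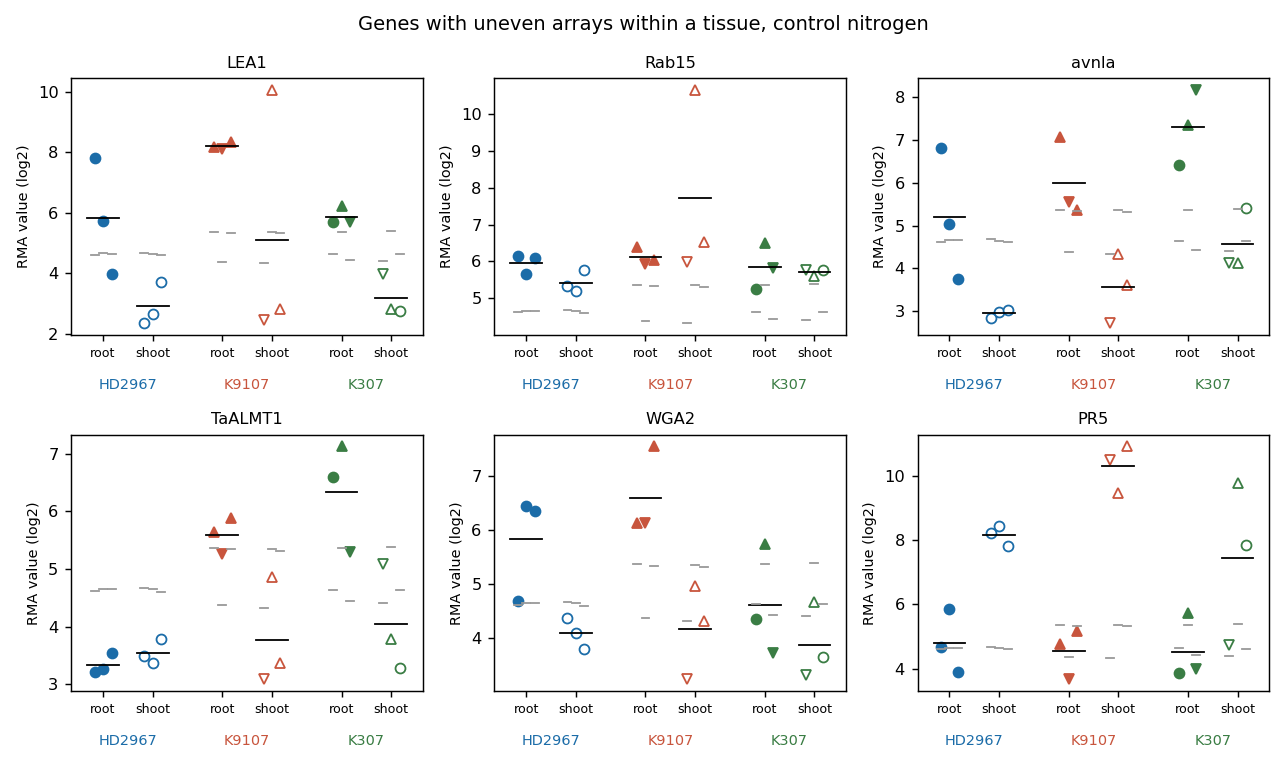
RMA values (log2, vertical axes) of LEA1, Rab15, avnla, TaALMT1, WGA2 and PR5 in every array, root left of shoot within each genotype, with symbols for the normalization sets, mean bars and array median ticks as in the plot of photosynthesis genes. Shoot array 2 of K9107 stands alone for LEA1 (10.05) and Rab15 (10.65), HD2967 roots and shoots lie together for TaALMT1, and shoot array 1 of K307 lies at the root level for PR5 (4.74).

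Of 8 defence genes, 1 was higher in roots, 3 were lower and 4 did not pass. The share called in either direction was near the 42.4% over all probe sets, where 24.0% were higher and 18.4% lower. With 8 genes, no lean to either organ is read from these counts. WGA2, a wheat germ agglutinin, a chitin-binding lectin, ranged from 3.73 to 7.54 with a median of 6.12 in roots, against 3.25 to 4.97 with a median of 4.10 in shoots, and was higher by 1.62 ± 0.26 (adjusted p = 0.000174). It was called in HD2967 (1.73) and K9107 (2.41), while in K307 it differed by 0.72 (adjusted p = 0.263), and the genotypes were not shown to differ (adjusted p = 0.282). PR5, a thaumatin-like pathogenesis-related protein, was lower in roots by a difference of -4.0 ± 0.46 (adjusted p = 9.17e-06). It had 4.67, 5.86 and 3.90 in HD2967 roots, against 8.21, 8.42 and 7.82 in HD2967 shoots. It had 4.78, 3.68 and 5.17 in K9107 roots, against 10.48, 9.47 and 10.91 in K9107 shoots. It had 3.88, 5.72 and 4.0 in K307 roots, against 4.74, 9.76 and 7.86 in K307 shoots, so shoot array 1 of K307 overlapped the roots. The glucanase gene Glc1 (-0.28 ± 0.13), the xylanase inhibitor gene XIP-I (-0.19 ± 0.09) and TTHV, a thionin gene (-0.08 ± 0.11), did not pass, nor did THI1.2 (-0.01 ± 0.05). The thionins THI1.1 (-1.06 ± 0.16) and THI1.3 (-1.50 ± 0.14) passed on average but were called in K307 alone among the genotypes.

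Of 8 translation genes, 3 were higher in roots, 1 was lower and 4 did not pass, with a median difference of 0.13. The share called in either direction was near the 42.4% over all probe sets, where 24.0% were higher and 18.4% lower. RPS29 and RPL9 differed by over 1, in opposite directions. RPS29, a small ribosomal subunit protein, was higher in roots by 1.11 ± 0.22, Eif4B, an initiation factor, by 0.45 ± 0.09 and TCTP, the translationally controlled tumour protein, by 0.28 ± 0.05. RPL9, also listed as CL9, was lower in roots by a difference of -3.70 ± 0.15 and did not overlap between organs (3.45 to 4.98 in roots, against 6.63 to 9.26 in shoots). NCBP, eIF-2-beta and eIF4E-1, further translation factors, lay at 0.04 ± 0.11, 0.08 ± 0.09 and 0.09 ± 0.07. In the methyl cycle, SAHH, S-adenosylhomocysteine hydrolase, which clears the product of methylation reactions, ranged from 12.19 to 13.21 in roots, against 11.0 to 12.55 in shoots, and was higher by 1.04 ± 0.15 (adjusted p = 5.58e-05). PIMT, a protein-repair methyltransferase, lay at -1.38 ± 0.17 and TaPEAMT1, phosphoethanolamine methyltransferase of choline synthesis, at -0.89 ± 0.21. TaCOMT1, a lignin pathway methyltransferase, lay at 0.03 ± 0.12. Of these 4 genes, 1 was thus higher, 2 were lower and 1 did not pass.

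Gibberellin 20-oxidases, which carry out late steps of gibberellin synthesis, were lower in roots for all 3 genes and all 4 probe sets. The share called lower over all probe sets was 18.4%. GA20ox1d lay at -1.18 ± 0.25, GA20ox1a at -0.97 ± 0.17 and GA20ox1b at -0.55 ± 0.12. Among single genotypes only K307 reached the call, with -2.27, -1.76 and -1.24, against -0.53, -0.52 and -0.10 in HD2967 and -0.74, -0.62 and -0.31 in K9107. The test of genotype by tissue did not pass for any of the 3 (adjusted p = 0.194, 0.165 and 0.0726), so K307 is not shown to differ with all arrays. Without K9107 shoot array 3 all 3 passed (adjusted p = 0.0417 for GA20ox1d, 0.00214 for GA20ox1a and 0.0182 for GA20ox1b), and without HD2967 shoot array 1 GA20ox1b did (0.0307). Of the 18 fits that left out 1 array, 17 did not pass for GA20ox1d, 17 for GA20ox1a and 16 for GA20ox1b. The fits that passed are named because they passed, so their p-values are no independent test of a genotype difference. GA20ox1a in K307 had 2.99, 3.12 and 3.64 in roots, against 5.25, 5.07 and 4.71 in shoots, and GA20ox1b was below the array median in all 18 arrays. Among 3 chromatin and transcription genes, Hmgb3, a high-mobility group protein, was higher in roots by 0.47 ± 0.16 (adjusted p = 0.0326), and lost that call in 10 of the 18 fits that left out 1 array. Hmgb3 passed in K9107 (1.42) and not in HD2967 (-0.03) or K307 (0.00), but the genotypes were not shown to differ (adjusted p = 0.077, and 0.0311 without HD2967 shoot array 1). TBP1, the TATA-binding protein, and WZF1 did not pass.

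Core histone and tubulin genes were higher in roots on average, but the shoots were not alike. Histones package newly copied DNA and their transcripts are made mainly in dividing cells, and tubulins build the microtubules of dividing and elongating cells. All 5 core histone genes were higher in roots, as were 16 of their 18 probe sets, with a median of 1.80 over the probe sets, against 0.05 over all probe sets. The share called higher over all probe sets was 24.0%. wcH2A-9, an H2A histone, had 10.07, 9.97 and 10.71 in HD2967 roots, against 11.08, 5.01 and 4.85 in HD2967 shoots. It had 10.27, 9.61 and 10.40 in K9107 roots, against 4.06, 4.66 and 5.19 in K9107 shoots. It had 9.94, 10.57 and 9.52 in K307 roots, against 9.78, 10.91 and 10.42 in K307 shoots. All 9 roots were high, all K9107 shoots and 2 HD2967 shoots were low, and all K307 shoots and shoot array 1 of HD2967 were at the level of the roots.

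The median of the list repeated this. The median of the 18 histone probe sets, relative to the array median, lay between 3.27 and 4.0 in the 9 roots. In shoots it was 4.37, 0.25 and 0.20 in HD2967, 0.17, 0.19 and 0.21 in K9107, and 3.79, 3.57 and 3.83 in K307. Within each of its 3 normalization sets K307 showed no root excess of wcH2A-9, with differences of -0.27, -0.48 and -0.33, while K9107 showed 5.55 in the low set and 5.4 in the high set. wcH2A-3 was called in HD2967 (2.31, adjusted p = 0.0315), but not with a replicate block in K9107 (0.0502). Without HD2967 shoot array 1 that difference was 3.57 (adjusted p = 1.72e-08), and over all 18 fits that left out 1 array it ran from 1.62 to 3.57, with the call lost without any of the other 5 HD2967 arrays. The shared differences were 2.79 ± 0.66 for wcH2A-9, 1.76 ± 0.41 for wcH2A-3, 1.65 ± 0.48 for wcH2B-8, 1.11 ± 0.33 for wcH2A-2 and 0.50 ± 0.18 for wcH2B-6. wcH2B-6 kept its call in 4 of the 18 fits that left out 1 array and lost it with a replicate block in K9107 (adjusted p = 0.0615). In K307 none of the 5 histone genes was called by its brightest probe set (-0.41 to 0.15), and 1 of the 18 probe sets was called higher. The dimmer probe set of wcH2A-3 did not follow the division between genotypes. It was higher in roots within the low, middle and high sets of K307 (0.58, 0.98 and 1.38), in HD2967 (0.6) and in K9107 (0.84 and 0.86).

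Tubulins showed the same division less sharply. All 6 genes and all 10 probe sets were called higher in roots on average, against 24.0% over all probe sets. The median was 1.43 over the 10 probe sets. Their list median lay between 5.14 and 5.78 in roots, against 5.01, 3.63 and 2.72 in HD2967 shoots, 3.60, 3.14 and 3.19 in K9107 shoots, and 5.17, 4.87 and 4.94 in K307 shoots. tubb2, a beta-tubulin, had 11.78, 11.75 and 11.93 in HD2967 roots, against 12.27, 9.46 and 7.94 in HD2967 shoots. It had 12.34, 12.01 and 12.43 in K9107 roots, against 8.29, 8.80 and 9.38 in K9107 shoots. In K307 roots it had 11.76, 12.45 and 11.84, against 12.56, 12.78 and 12.24 in K307 shoots, where the pooled values overlapped. Within the low, middle and high sets of K307, tubb2 was lower in roots (-0.72, -0.48 and -0.33). Its K307 difference of -0.51 was not called (adjusted p = 0.647). Of the 10 tubulin probe sets, 1 was called higher in K307. Shared differences were 1.64 ± 0.24 for Tubb5, 1.62 ± 0.41 for tubb2, 1.13 ± 0.15 for tubb1, 0.91 ± 0.09 for Tubb4, 0.73 ± 0.12 for the alpha-tubulin TUBA and 0.40 ± 0.11 for tubb3. Tubb4 was called in all 3 genotypes (0.74 in HD2967, 1.18 in K9107 and 0.80 in K307).

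**Figure D4:**
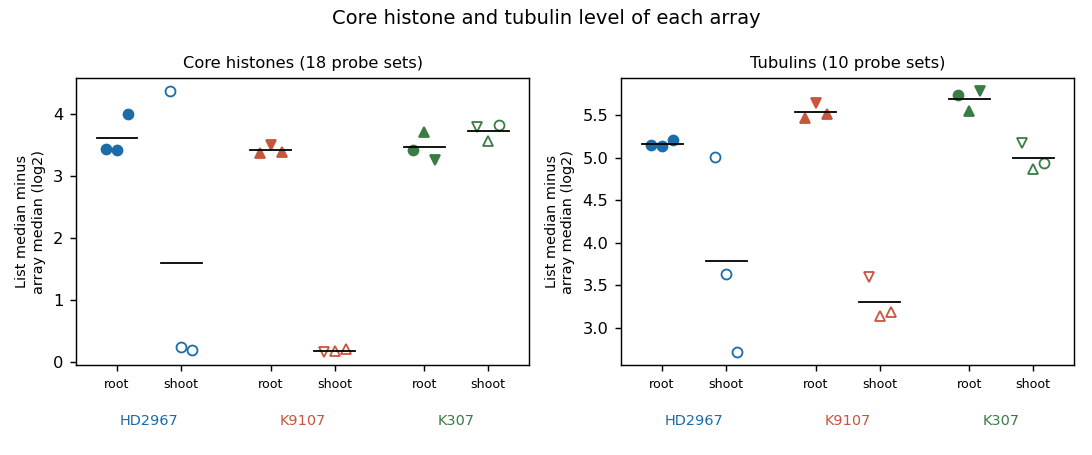
Level of the core histone list (18 probe sets) and the tubulin list (10 probe sets) in each array, as the median of the list minus the array's median (log2, vertical axes), root left of shoot within each genotype. Roots sit high in all genotypes; shoots sit low in K9107 and in arrays 2 and 3 of HD2967, and at or near the root level in K307 and in array 1 of HD2967, most plainly for the histones.

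With all 18 arrays, the test of genotype by tissue passed for none of the 5 histone and none of the 6 tubulin genes. Without HD2967 shoot array 1, the test passed for 4 of 5 histone genes (wcH2A-9, adjusted p = 4.21e-08) and 5 of 6 tubulin genes (tubb2, adjusted p = 5.67e-05). Without it the difference of wcH2A-9 in HD2967 was 5.32, against 3.27 with it. Without K9107 shoot array 2 no histone and 1 tubulin gene passed. HD2967 shoot array 1 also had 5.74 for BMY1 and 8.31 for XTH, a xyloglucan endotransglucosylase of the growing cell wall, against 3.08 to 3.10 and 5.59 to 5.88 in the other HD2967 shoots. What sets this array apart was not tested. It stands out by these same values, so p-values of fits without it are no independent test of whether the genotypes differ. That holds here and for BMY1 and XTH below. Nor are fits without this array an independent test for Hmgb3 and GA20ox1b above. Of the 18 fits that left out 1 array, 17 did not pass the genotype by tissue test for wcH2A-9.

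Across all probe sets, the root minus shoot difference differed between the 3 genotypes for 1922 (3.14%). Of these, 1535 were also called on average over the genotypes, and 195 were called in opposite directions in at least 2 genotypes. In pairs, 478 probe sets differed between HD2967 and K9107 (0.781%), 1261 between HD2967 and K307 (2.06%) and 1462 between K9107 and K307 (2.39%). For 435 probe sets K307 differed from both other genotypes, for 206 HD2967 did and for 128 K9107 did. The count rests on single arrays: it was 5358 without HD2967 shoot array 1, 3253 without K9107 shoot array 3 and 884 without K307 shoot array 1. Among the 102 named genes 6 passed.

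The thionins THI1.1 and THI1.3 differed most. Thionins are small cysteine-rich peptides toxic to fungi and bacteria. THI1.3 had 1.87, 2.68 and 1.64 in K307 roots, against 7.17, 6.48 and 6.19 in K307 shoots. In HD2967 it had 1.95, 2.08 and 1.99 in roots, against 2.26, 1.95 and 1.84 in shoots, and in K9107 2.69, 1.99 and 2.59 in roots, against 1.99, 2.43 and 2.68 in shoots. Only the 3 K307 shoot arrays were above the array median, and there was no overlap with the other 15. The difference was -4.55 ± 0.24 in K307 (adjusted p = 1.64e-08), against -0.01 in HD2967 and 0.06 in K9107, and the genotypes differed with adjusted p = 1.13e-05. It was -5.52, -4.33 and -3.80 within the low, middle and high sets of K307.

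THI1.1 had 3.15, 3.88 and 2.62 in K307 roots, against 7.60, 7.47 and 6.80 in K307 shoots. Its difference was -4.07 ± 0.27 in K307, against 0.21 in HD2967 and 0.69 in K9107, and the genotypes differed with adjusted p = 3.61e-05. It was -4.98, -3.65 and -3.59 within the low, middle and high sets of K307. For both thionins, K307 differed from HD2967 and from K9107, by 4.28 and 4.77 for THI1.1 and by 4.54 and 4.61 for THI1.3, while HD2967 and K9107 were not shown to differ (adjusted p = 0.716 and 0.968). The second probe set of each passed too, with K307 differences of -1.80 and -3.41. Their names end in _s_at or _x_at in part, a mark of probe sets that may also report related transcripts. THI1.2 was called lower in K307 (-0.26, adjusted p = 0.0426), opposite in sign to HD2967 (0.10) and K9107 (0.13). It was below the array median in all 18 arrays, and it kept its call in 3 of the 18 fits that left out 1 array.

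**Figure D5:**
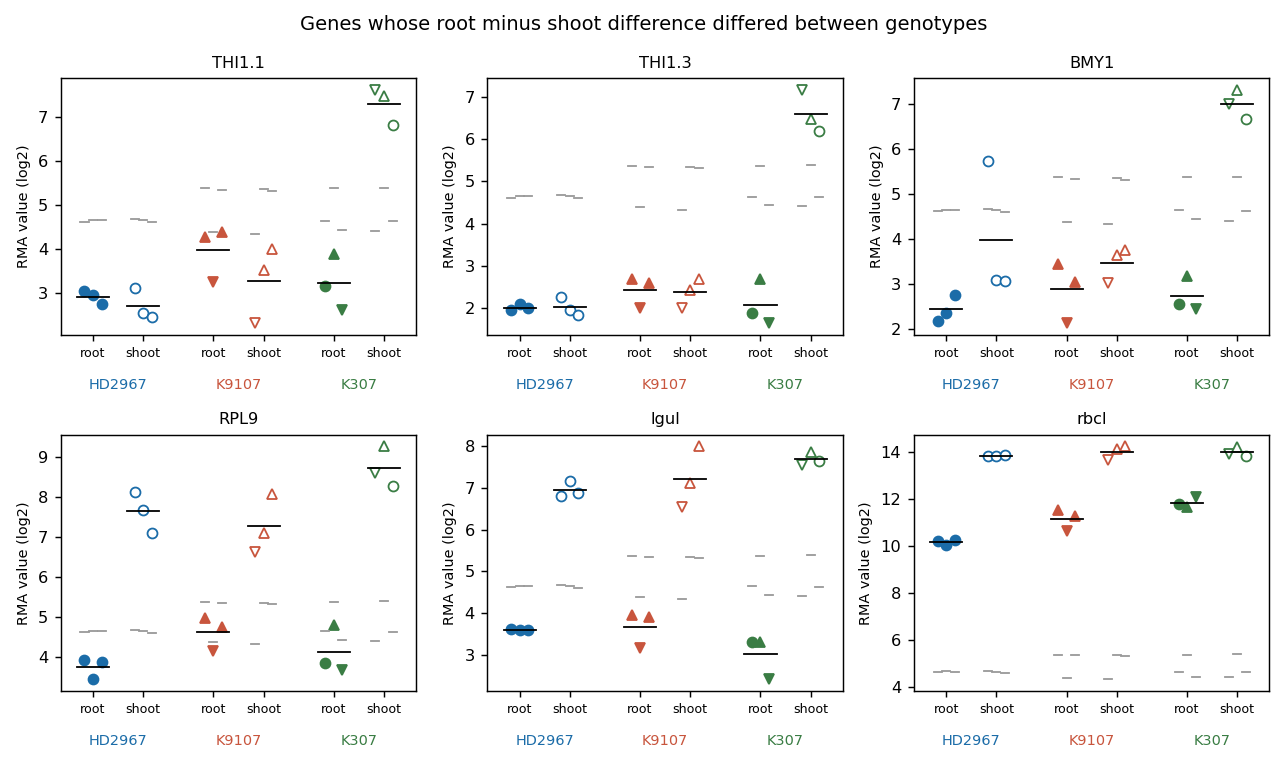
RMA values (log2, vertical axes) of the 6 named genes whose root minus shoot difference differed between genotypes, root left of shoot within each genotype, with symbols for the normalization sets, mean bars and array median ticks as in the plot of photosynthesis genes. THI1.1, THI1.3 and BMY1 are high in K307 shoots, while rbcl spreads from 10.06 to 12.10 in roots, against 13.67 to 14.24 in shoots.

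BMY1 and RPL9 differed most between K9107 and K307. BMY1 had 2.55, 3.19 and 2.46 in K307 roots, against 7.01, 7.31 and 6.67 in K307 shoots. It had 2.19, 2.37 and 2.77 in HD2967 roots, against 5.74, 3.10 and 3.08 in HD2967 shoots, and 3.46, 2.14 and 3.06 in K9107 roots, against 3.03, 3.64 and 3.77 in K9107 shoots. The difference was -4.27 in K307, -1.53 in HD2967 and -0.59 in K9107, each ± 0.52. The genotypes differed with adjusted p = 0.0313, which became 0.0579 with a replicate block in K9107, 1.33e-06 without HD2967 shoot array 1 and 0.108 without K307 shoot array 1. RPL9 lay at -4.59 in K307, -3.88 in HD2967 and -2.64 in K9107, each ± 0.27 (adjusted p for genotype by tissue 0.0307). XTH had a like order, at -2.82 in K307, -1.07 in HD2967 and 0.02 in K9107, but did not pass (adjusted p = 0.0937), and without HD2967 shoot array 1 it did (adjusted p = 2.35e-05).

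For lgul and rbcl roots were lower in all 3 genotypes. lgul lay at -4.69 in K307, -3.36 in HD2967 and -3.55 in K9107, each ± 0.20 (adjusted p for genotype by tissue 0.0397). Its second probe set did not pass (adjusted p = 0.298), and its call was lost in 15 of the 18 fits that left out 1 array. rbcl lay at -3.67 in HD2967, -2.87 in K9107 and -2.14 in K307, each ± 0.18 (adjusted p = 0.0153). As its shoot values lay within 0.03 to 0.15 of each array's brightest value, these differences may be understated, and no order of the genotypes is read from them. Of its 28 probe sets 3 passed. AGA.1 (-4.68 in K307, -4.07 in K9107 and -3.52 in HD2967; adjusted p = 0.0619, and 0.0456 with a replicate block in K9107) and Glc1 (0.50 in HD2967, -0.44 in K307 and -0.92 in K9107; adjusted p = 0.0656) came next and did not pass.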

How the data were processed

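RNA from roots and shoots was hybridized to Affymetrix Wheat Genome Arrays. The authors deposited log2 values of 61290 probe sets, normalized with RMA, per the submitters' processing notes, and GeneSpring 14.5 was used for their analysis, per the labels' design text. That text calls the values log2 ratios, but they lie in the range of log2 intensities. No source used here states the RMA version or the arrays that went into each RMA run. Which probe sets were above background is unknown, and low log2 values understate folds.

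The 111 control probe sets were left out, which leaves 61179. Arrays were assigned to normalization sets by gaps of over 0.1 between array medians. The fit used lmFit and eBayes of limma 3.58.1 (R 4.3.3) on the 6 genotype and tissue means with the set as a fixed term, with 10 residual degrees of freedom. The median residual SD was 0.205 with that term and 0.468 without it. Genotype by tissue was a moderated F-test. The number of arrays limits the precision.

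Names came from the platform annotation: 1273 probe sets pair with 1 gene (771 genes, 770 of them in NCBI's wheat gene table), 0 with several, and 60017 are unnamed here; 102 genes with 200 probe sets carry an informative symbol. Named are the 12 largest shared differences each way with 1 sign in all genotypes, genes called in 1 genotype opposite to the others, the 8 smallest genotype by tissue p, and in each list up to 4 called genes each way and up to 3 with the largest p. XTH, Rab15 and WZF1 are described more fully, chosen after their values were seen. Genes known only by a description were not named, as the tables give none. Members and lists were chosen with earlier results of these data known.

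To check the replicate numbers, residuals of root and shoot arrays with 1 number were correlated: -0.268 to 0.14 in HD2967, -0.595 to 0.371 in K307, and 0.113 to 0.368 in K9107. By a rule of over 0.1 in every pair, K9107 was given a replicate block, from these values and not the labels. K9107 root and shoot arrays with different numbers gave -0.46 to 0.316. The fit's own terms also tie residuals together, as with -1 for K307 root 1 and shoot 3. These values therefore do not show pairing, and the block is only an alternative setting. Alternatives covered the set term, normalization, dim probe sets, array weights, pairing, arrays left out, and the methods' t-test at p of at most 0.1.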

Additional observations from a re-analysis of the deposited data

Results flagged for a closer look

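Among the named genes, 6 differed between the 3 genotypes in their root minus shoot difference, each by limma's F-test of genotype by tissue, adjusted over all probe sets. THI1.3 had adjusted p = 1.13e-05 and THI1.1 had 3.61e-05, both with K307 shoots above all other arrays. rbcl had adjusted p = 0.0153, RPL9 0.0307, BMY1 0.0313 and lgul 0.0397. The shoot values of rbcl lay within 0.03 to 0.15 of the brightest value on each array, so the size of its difference is not settled in any genotype. Groups of 3 arrays were not tested for outlying values.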

How the results depend on the processing

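The differences themselves do not depend on the set term, but the calls do. The count of 25953 shared calls was 12398 with no set term, 12613 in the middle set alone and 9919 by the methods' t-test after Benjamini-Hochberg adjustment. In HD2967 (14158) it was 5783 with no set term, 21245 with array weights, and 23672 and 6441 by the methods' t-test before and after adjustment. In K9107 (15349) it was 6413 with no set term, 8950 without the low set, 5211 without the high set and 612 by the adjusted t-test. In K307 (16708) it was 6516 with no set term, 9247 without the low set, 5262 in the middle set alone, and 10601 and 1311 by the t-test before and after adjustment. Leaving out 1 array gave 23570 to 28275 shared calls, 10564 to 16028 in HD2967, 11378 to 16431 in K9107 and 11737 to 19305 in K307.

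Genotype by tissue (1922) was the least stable count. It was 212 with no set term, 3200 with all 36 arrays, 8507 with array weights, 260 without the low set, 311 without the high set and 93 in the middle set alone. It was 3858 without HD2967 shoot 1 and K307 shoot 3, and 6892 without HD2967 shoot 1 and K9107 shoot 2. Leaving out 1 array gave 884 to 5358: 5358 without HD2967 shoot 1 and 3253 without K9107 shoot 3, and 884 to 1266 without HD2967 root 2 or shoot 2, K9107 root 1, 2 or 3 or shoot 1, or K307 root 1 or 3 or shoot 1, 2 or 3. K307 root 1 and shoot 3 give the same fit when left out, since they are its only arrays in the middle set.

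With the replicate number as a block in every genotype, 22572 shared and 362 genotype by tissue calls passed. With the block in K9107 alone, chosen after seeing the data like the middle set alone and the fit without HD2967 shoot 1 and K9107 shoot 2, these were 25659 and 1542. The genotype by tissue calls of BMY1 and RPL9 were each lost in 11 of 18 fits that left out 1 array, lgul in 15, and rbcl in 2 (K307 root 1 or shoot 3, adjusted p = 0.0565). THI1.1 and THI1.3 kept theirs in all 18. Shared calls lost in some of these fits were EM (4), FKBP70 (5), Hmgb3 (10) and wcH2B-6 (14). TaALMT1 lost its K9107 call in 4 and its K307 call in 2, PR5 its K307 call in 3 and WGA2 its HD2967 call in 2. Over single named genes, 6628 values under alternatives kept direction and side of the threshold, 371 lost the call, 175 gained one, 87 moved and 0 reversed a called direction. The files hold no detection calls, so root levels below the array median are not shown to be above background.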
